A study of Mus musculus with 16 samples.

Results

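Small nucleolar RNAs (snoRNAs) fall into C/D box and H/ACA box classes, and their levels were compared between leukemic mouse bone marrow and normal B cell precursors. The members were the genes whose symbol starts with Snord (C/D) or Snora (H/ACA) and that had a probe set annotated to that gene alone, with the probe set of highest mean over all arrays kept for each gene. This gave 51 snoRNAs, 31 C/D and 20 H/ACA, of 19938 genes measured. The probe set of each gene was chosen by its mean level, and snoRNAs as a group were selected on their log2 differences between these arrays, so the class values below are descriptions without a test.

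C/D snoRNAs guide the methylation of ribose in ribosomal and spliceosomal RNA through the methyltransferase fibrillarin, and H/ACA snoRNAs guide the conversion of uridine to pseudouridine through dyskerin. In mammals nearly all of them are cut out of introns of host genes, many of which encode ribosomal proteins or non-coding RNAs, so their supply is tied to transcription and splicing of the host. A few, such as Snord118 and the Snora73 genes, act in the cleavage of ribosomal precursor RNA in place of modifying it.

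The 16 arrays held total RNA of 6 Bank1+/- Pax5+/- mice (Bank1/Pax5 leukemia), 6 Pax5+/- mice (Pax5 leukemia) and 4 WT samples. The leukemia samples were bone marrow of mice with leukemia that were heterozygous for Pax5 in both groups and for Bank1 as well in the first. The WT samples were pro-B and pre-B cells, although their cell type label also reads as leukemic cells, and the design text counts 3 WT mice where 4 WT replicates are labelled. The sources used here do not give how the WT cells were isolated, the age of the mice or any batches.

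Values are log2 probe set intensities, and a difference of 1 is a 2-fold change. Array medians lay between 6.58 and 6.71, and arrays of 1 group correlated at r from 0.944 to 0.987 in Bank1/Pax5 leukemia, 0.968 to 0.982 in Pax5 leukemia and 0.992 to 0.995 in WT precursors. Pax5, the factor that fixes B cell identity, was under 9 on 2 Bank1/Pax5 leukemia arrays, 7.85 on array 1 and 8.02 on array 5, and on array 3 of Pax5 leukemia at 7.52, and counts without these 3 arrays are given below. Bank1, a B cell adaptor protein gene, lay at 7.26 to 9.52 on Bank1/Pax5, 8.80 to 11.09 on Pax5 leukemia and at most 9.26 on WT arrays (median 9.20). The median of 7 measured B cell precursor markers ranged from 7.58 to 11.76 in Bank1/Pax5 leukemia, from 8.07 to 12.28 in Pax5 leukemia and from 12.52 to 12.63 in WT precursors. For 8 monocyte and macrophage markers the ranges were 9.18 to 11.71, 8.65 to 10.43 and 6.53 to 6.66 in the same order of groups. In bulk marrow, fewer cells of a type and less RNA per cell cannot be told apart.

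The mature snoRNA sequences are not printed here. The sequences below are taken from RefSeq promoter windows (build GRCm38.p6) and show the first transcribed bases of 6 host genes, 20 bases before and 40 after an annotated start, because many snoRNA hosts begin with a run of C and T that ribosomal protein genes use to couple their translation to growth signals. Capitals mark the longest run of C or T that reaches within 5 bases of the start in Gas5, Snhg12, Rack1, Chd8 and Srcap. In Srcap the run lies wholly before the annotated start, and in Chd8 it begins at base 4. In Rpl23 capitals mark the letters CACGTG, a motif bound by MYC and related factors.
Gas5 (host of Snord47; chr1:161035146-161035205, plus strand): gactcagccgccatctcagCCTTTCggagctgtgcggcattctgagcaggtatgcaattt
Snhg12 (host of Snora16a and Snora44; chr4:132308658-132308717, plus strand): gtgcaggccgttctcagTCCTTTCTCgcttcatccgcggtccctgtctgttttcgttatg
Rack1 (host of Snord95 and Snord96a; chr11:48800340-48800399, plus strand): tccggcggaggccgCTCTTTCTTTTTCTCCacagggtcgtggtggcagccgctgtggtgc
Chd8 (host of Snord8; chr14:52257721-52257780, minus strand): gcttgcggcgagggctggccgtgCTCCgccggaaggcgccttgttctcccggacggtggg
Srcap (host of Snora30; chr7:127511963-127512022, plus strand): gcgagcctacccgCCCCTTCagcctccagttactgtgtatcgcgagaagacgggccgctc
Rpl23 (host of Snora21; chr11:97782400-97782459, minus strand): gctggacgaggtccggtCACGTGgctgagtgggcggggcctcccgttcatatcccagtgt

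Both classes stood highest in Pax5 leukemia. For C/D snoRNAs the median on an array averaged 8.18 ± 0.42 over the 6 Bank1/Pax5 leukemias, 9.35 ± 0.24 over the 6 Pax5 leukemias and 8.39 ± 0.12 over the 4 WT samples (mean ± SD). For H/ACA snoRNAs it averaged 8.37 ± 0.32, 9.20 ± 0.08 and 8.52 ± 0.06 in the same order of groups. In each class every Pax5 leukemia array lay above every other array, while Bank1/Pax5 leukemia and WT arrays overlapped. Array 2 of Bank1/Pax5 leukemia was the highest of its group in both classes, at 8.88 for C/D and 8.83 for H/ACA.

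**Figure D1:**
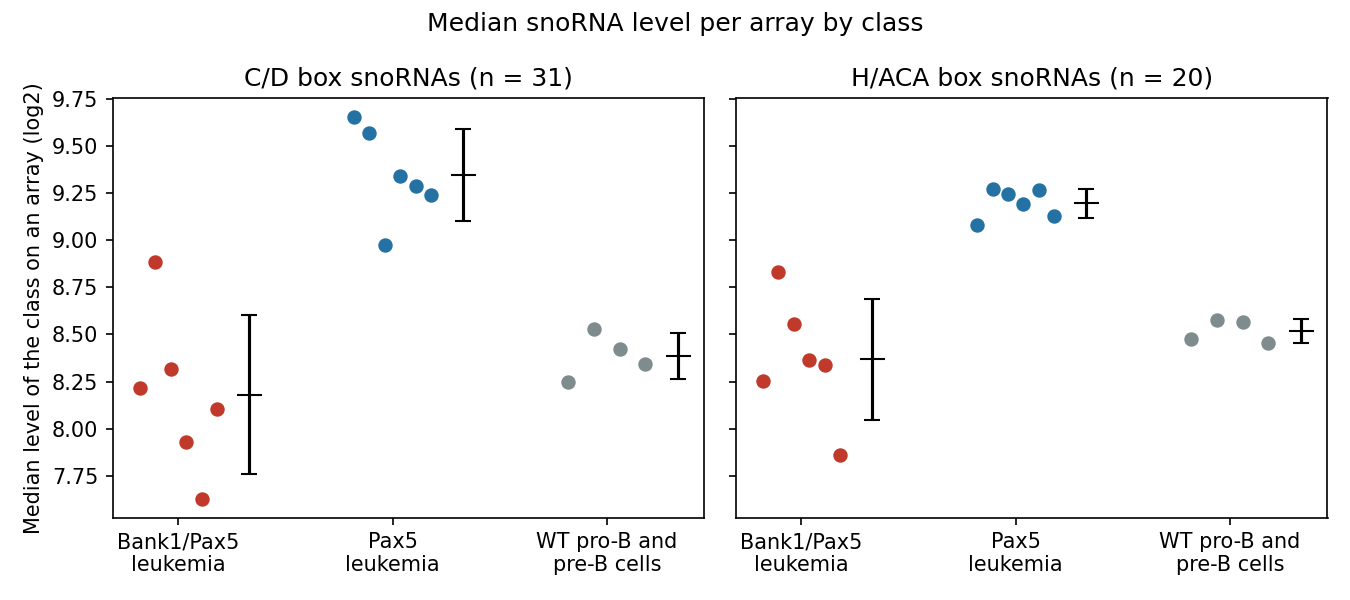
Median log2 level of the 31 C/D (left) and 20 H/ACA (right) snoRNAs on each array, by group, with points for arrays and bars for the group mean ± SD. The 6 Pax5 leukemia arrays lie at 8.98 to 9.65 for C/D and 9.08 to 9.27 for H/ACA, above all arrays of Bank1/Pax5 leukemia and WT precursors.

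The gap between the classes on an array, C/D median minus H/ACA median, overlapped between all groups. Its size within a group also reflects how bright each probe set is, so only its differences between groups are read. The Bank1/Pax5 leukemia arrays had a gap of -0.19 ± 0.35 (-0.71 to 0.24), the Pax5 leukemia arrays 0.15 ± 0.28 (-0.27 to 0.57) and the WT arrays -0.13 ± 0.08 (-0.23 to -0.04; SD, n = 6, 6 and 4). Pax5 leukemia minus WT gave 0.28, which was -0.013 with dim probe sets left out, and Bank1/Pax5 minus Pax5 leukemia gave -0.34, which was then -0.020. Bank1/Pax5 leukemia minus WT gave -0.06, and 0.037 when the 3 arrays of low Pax5 were left out.

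By member, the mean was highest in Pax5 leukemia for 26 of 31 C/D and 17 of 20 H/ACA snoRNAs. It was highest in WT precursors for 3 of each class and in Bank1/Pax5 leukemia for 2 C/D snoRNAs. The lowest mean lay in Bank1/Pax5 leukemia for 11 C/D and 13 H/ACA snoRNAs, and in WT precursors for 19 C/D and 6 H/ACA snoRNAs.

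**Figure D2:**
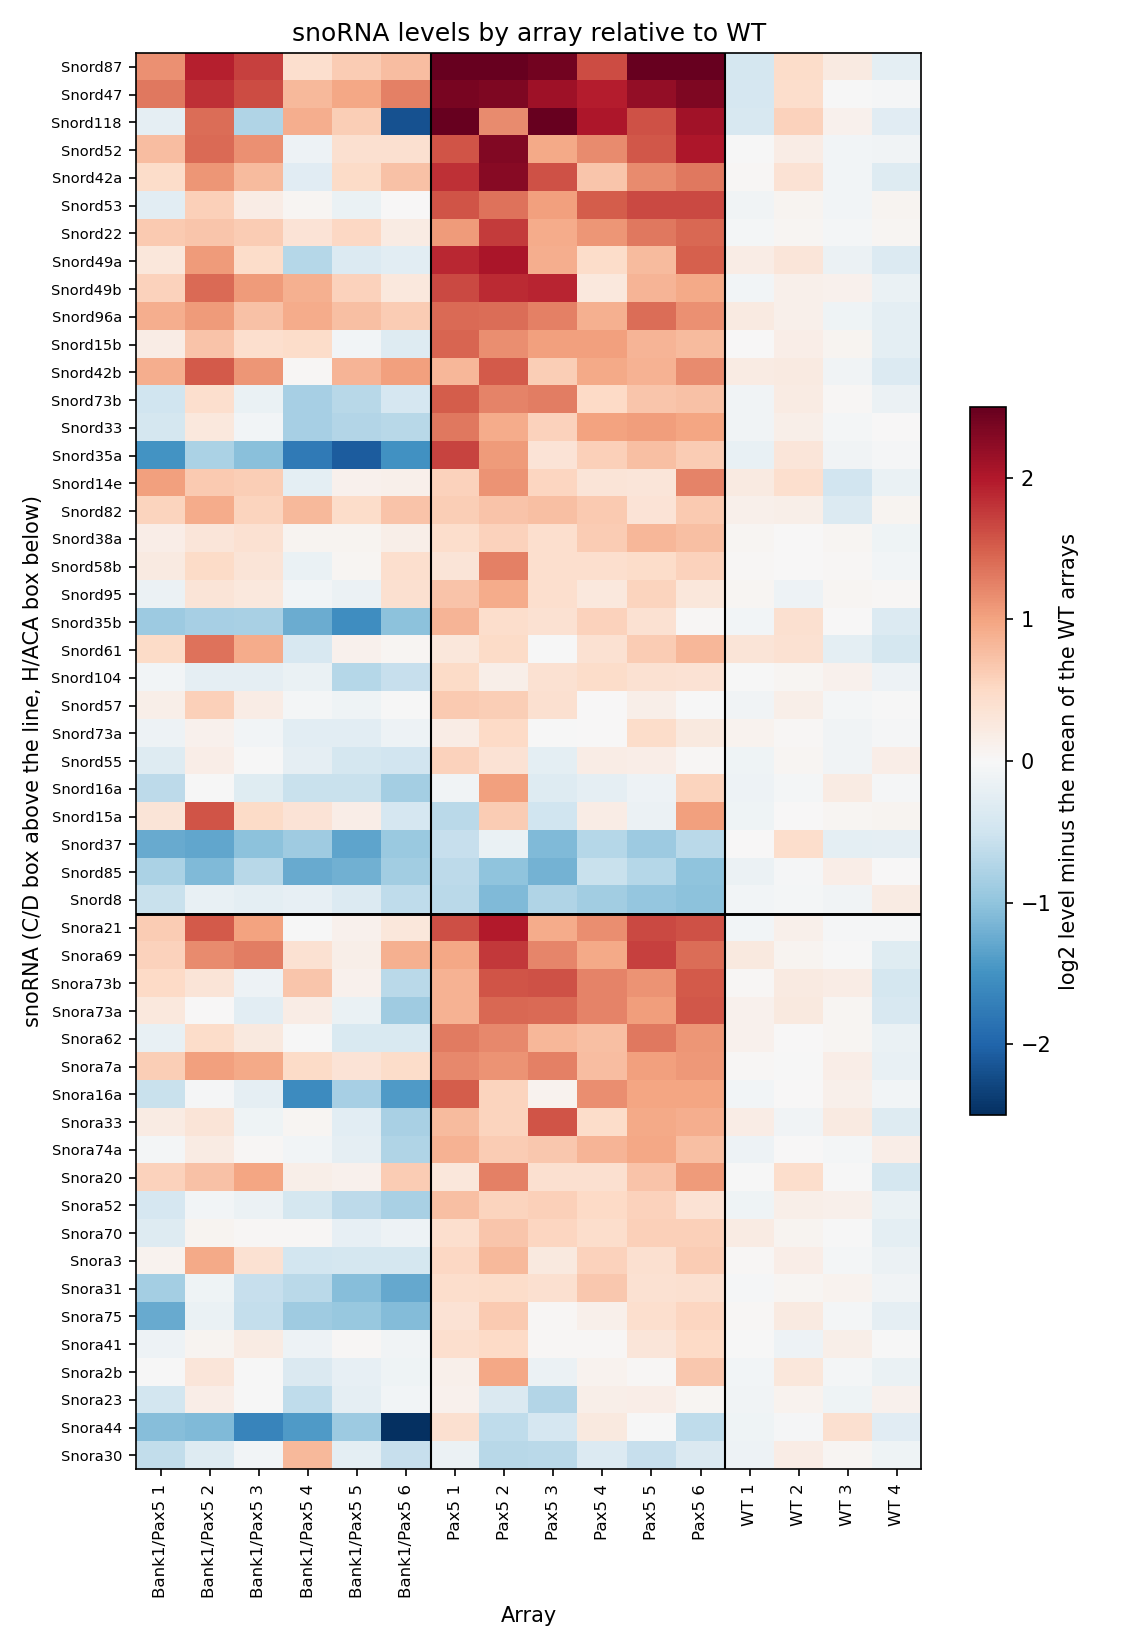
Level of each snoRNA on each array minus its WT mean (log2, colour), with arrays in columns by group and snoRNAs in rows, C/D above the line and H/ACA below, each ordered by the difference between Pax5 leukemia and WT precursors. Most rows are red in the Pax5 leukemia columns, Snord8, Snord85 and Snord37 are blue there, and Snord35a, Snord35b and Snora44 are blue in the Bank1/Pax5 columns.

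How snoRNAs in leukemic Pax5+/- marrow differ from those in normal precursors was asked by setting Pax5 leukemia against WT. A gene was called at a Benjamini-Hochberg adjusted p under 0.05 in a limma fit over all genes. Of the C/D snoRNAs 20 rose, 3 fell and 8 did not pass, and of the H/ACA snoRNAs 12 rose, none fell and 8 did not pass. Over all genes tested 9.53% were called higher, 13.8% lower and 23.3% in either direction. The median difference was 0.69 for C/D, 0.62 for H/ACA and -0.05 for all genes. Groups did not overlap, with Pax5 leukemia higher, for 32 of the 51 members (11.6% of all genes), and with Pax5 leukemia lower for 3 (13.2%). The balance of calls over all genes, 1901 higher and 2754 lower, moved to 2302 and 2136 with cyclic loess and to 2021 and 1953 with median centring, whereas that of C/D snoRNAs stayed at 20 higher and 3 lower with both. Leaving out the 3 arrays with low Pax5 gave 20 higher and 3 lower C/D and 13 higher H/ACA snoRNAs, and leaving out any single array gave 18 to 24 called C/D and 9 to 13 called H/ACA snoRNAs. Also called higher were 5 of 8 monocyte and macrophage, 4 of 4 measured megakaryocyte and 6 of 8 stromal and endothelial markers, and 3 of 6 measured NK and T cell markers were lower. Of 7 measured B cell precursor markers 1 was called lower (median difference -1.23), as was 1 of 3 measured erythroid markers. None of 7 neutrophil markers was called. Their part in the snoRNA differences was not tested.

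Snord87, carried by the non-coding host Snhg6, showed the largest C/D difference. Its level ran from 7.69 to 8.80 in Pax5 leukemia (median 8.66), against 5.62, 6.51, 6.28 and 5.81 on the WT arrays. The groups did not overlap, and the difference was 2.46 (5.49-fold, SE 0.31, adjusted p = 6.35e-05). Snord87 was dim in WT precursors, meaning a group mean under 7.01, the median of the named probe sets, so the size of this difference is not well bounded.

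Snord47, carried by Gas5, ran from 10.39 to 10.79 in Pax5 leukemia (median 10.70), against 8.01, 8.87, 8.42 and 8.39 on the WT arrays. It was well separated and bright in both groups, with a difference of 2.22 (4.67-fold, SE 0.19, adjusted p = 2.83e-06). Snord118, which acts in the maturation of the large ribosomal subunit's RNA and is transcribed from its own gene, ran from 8.88 to 10.81 in Pax5 leukemia (median 9.75), against 7.29, 8.27, 7.79 and 7.41 on the WT arrays. Its difference of 2.13 (SE 0.58, adjusted p = 0.0156) ended just above the threshold when WT array 4 was left out (2.04, adjusted p = 0.0503, and 0.0007 to 0.0503 across the alternatives). Snord52 (1.59, SE 0.29; dim in WT) and Snord42a (1.48, SE 0.29; dim in WT) completed the largest C/D rises.

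Snora21, carried by the ribosomal protein gene Rpl23 whose start is shown above, led the H/ACA class. Its level ran from 8.29 to 9.33 in Pax5 leukemia (median 8.96), against 7.28, 7.48, 7.33 and 7.31 on the WT arrays. The groups did not overlap and the difference was 1.49 (SE 0.27, adjusted p = 0.00112). Snora69 followed at 1.33 (SE 0.23), then Snora73b at 1.33 (SE 0.23), Snora73a at 1.26 (SE 0.20) and Snora62 at 1.08 (SE 0.16; dim in WT), with groups apart in each case. Snora73a and Snora73b are near-identical copies in 1 host, Snhg3, that act in ribosomal RNA cleavage, and the array may not tell them apart. For Snora73a the levels ran from 11.49 to 12.18 in Pax5 leukemia (median 11.95), against 10.73, 10.87, 10.67 and 10.23 on the WT arrays.

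Snora52, the H/ACA snoRNA of highest mean intensity, ran from 12.95 to 13.35 in Pax5 leukemia (median 13.16), against 12.49, 12.74, 12.71 and 12.42 on the WT arrays, a difference of 0.56 (SE 0.13, adjusted p = 0.00703) without overlap. Snord104, the C/D snoRNA of highest mean intensity, was higher by 0.37 (SE 0.11, adjusted p = 0.0305), a call that ended with cyclic loess (0.31, adjusted p = 0.0989) and without Pax5 leukemia array 4 or 5 or WT array 1, 2 or 4 (adjusted p from 0.0525 to 0.104). Snord57 differed by 0.30 (SE 0.15, adjusted p = 0.16) and did not pass. Snord49b, the third in C/D intensity, rose by 1.25 (SE 0.30, adjusted p = 0.00773).

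Against the upward shift of their class, 3 C/D snoRNAs fell in Pax5 leukemia. Snord8, carried by the chromatin remodeller gene Chd8, ran from 7.73 to 8.14 in Pax5 leukemia (median 7.90), against 8.75, 8.77, 8.73 and 9.02 on the WT arrays, a difference of -0.90 (SE 0.11, adjusted p = 3.75e-05). Snord85 ran from 6.87 to 7.50 in Pax5 leukemia (median 7.20), against 7.91, 8.02, 8.23 and 8.06 on the WT arrays, a difference of -0.85 (SE 0.14, adjusted p = 0.000501). Both were separate from WT on every array.

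The third, Snord37, lies in the translation elongation factor gene Eef2 and was dim in all groups. It ran from 5.70 to 6.64 in Pax5 leukemia (median 6.11), against 6.82, 7.24, 6.57 and 6.59 on the WT arrays, with overlap of the ranges and a difference of -0.69 (SE 0.17, adjusted p = 0.00967). In the H/ACA class Snora30 (-0.46, SE 0.22, adjusted p = 0.14), Snora44 (-0.18, adjusted p = 0.7) and Snora23 (-0.11, adjusted p = 0.699) had values below 0 and did not pass. For Snora30, carried by the chromatin remodeller gene Srcap, every Pax5 leukemia array was nevertheless below every WT array.

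**Figure D3:**
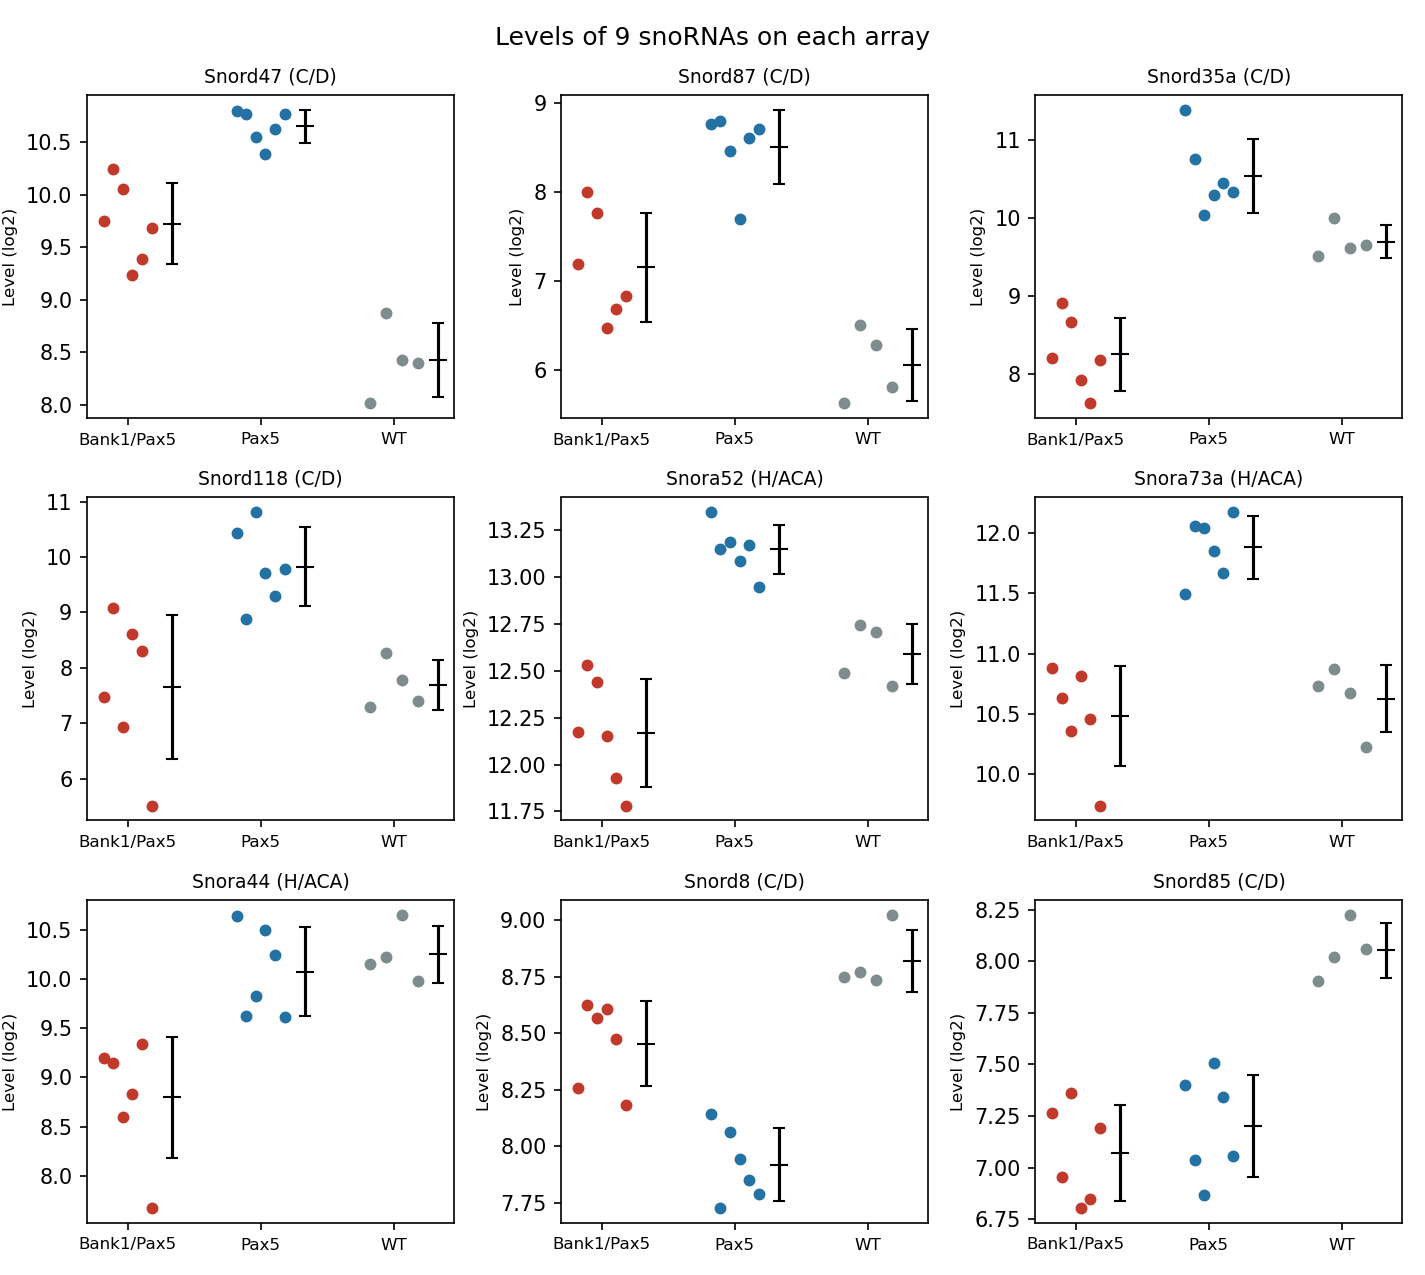
Log2 level of 9 snoRNAs on each array in Bank1/Pax5 leukemia, Pax5 leukemia and WT precursors, with points for arrays and bars for the group mean ± SD; the vertical axes differ between panels and do not start at 0. Snord47 and Snord87 are highest in Pax5 leukemia and lowest in WT precursors, Snord35a and Snora44 are lowest in Bank1/Pax5 leukemia, and Snord8 and Snord85 are highest in WT precursors.

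Bank1/Pax5 leukemia and Pax5 leukemia share the Pax5 allele loss, and their comparison asks what the added loss of a Bank1 allele goes with. Of the C/D snoRNAs 17 fell, 1 rose and 13 did not pass, and of the H/ACA snoRNAs 13 fell, none rose and 7 did not pass. Over all genes tested 5.0% were called lower, 1.71% higher and 6.7% in either direction. The median difference was -0.45 for C/D, -0.92 for H/ACA and 0.02 for all genes. These member medians fell more for H/ACA. The class medians on an array fell more for C/D (gap of -0.34), so no order of the classes is read. With dim probe sets removed the C/D median difference was -0.73. All Bank1/Pax5 arrays lay below all Pax5 leukemia arrays for 21 members (1.87% of all genes) and above for 1 (0.833%). On leaving out the 3 arrays of low Pax5, 9 C/D snoRNAs were lower, 1 was higher and 11 H/ACA were lower. The calls over all genes, 340 higher and 996 lower, moved to 452 and 618 with cyclic loess, where 1 C/D snoRNA was higher, 13 were lower and 12 H/ACA were lower. Fitted without WT, 11 C/D were lower, 1 was higher and 11 H/ACA were lower. The median expression of NK and T cell markers ranged from 6.49 to 7.62 in Bank1/Pax5 leukemia and from 5.68 to 6.29 in Pax5 leukemia, 3 of 6 measured markers being called higher, and 1 of 8 monocyte and macrophage markers was also called higher. Their part was not tested.

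Snord35a, carried by the ribosomal protein gene Rpl13a, had the largest difference. It ran from 7.63 to 8.91 in Bank1/Pax5 leukemia (median 8.20), against 10.04 to 11.39 in Pax5 leukemia (median 10.39), with no overlap, a difference of -2.29 (4.89-fold lower, SE 0.23, adjusted p = 0.000292). Snord33, which lies in the same host and with Snord35a belongs to a group of snoRNAs implicated in the stress response to excess lipid, was lower by -1.39 (SE 0.17, adjusted p = 0.000713). Snord35b, a related snoRNA, was at -1.50 (SE 0.16, adjusted p = 0.000301), and cross-detection of Snord35a and Snord35b was not tested.

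Snord53, carried by the ribosome biogenesis gene Wdr43, ran from 10.35 to 11.22 in Bank1/Pax5 leukemia (median 10.65), against 11.66 to 12.27 in Pax5 leukemia (median 12.17), a difference of -1.40 (SE 0.13, adjusted p = 0.000292) with groups apart. Snord118 spread widely in Bank1/Pax5 leukemia, from 5.51 to 9.09 (median 7.88), against 8.88 to 10.81 in Pax5 leukemia (median 9.75). Its groups overlapped, and the difference of -2.17 (SE 0.52, adjusted p = 0.0236) missed the threshold when WT was left out of the fit (adjusted p = 0.0708) or the 3 arrays of low Pax5 were (-2.09, adjusted p = 0.0912), with 0.0107 to 0.0912 across the alternatives.

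Snora16a and Snora44 both lie in Snhg12, whose start is shown above. Snora16a ran from 8.24 to 9.79 in Bank1/Pax5 leukemia (median 9.13), against 9.90 to 11.32 in Pax5 leukemia (median 10.80), a difference of -1.65 (3.14-fold lower, SE 0.27, adjusted p = 0.0038). Snora44 ran from 7.67 to 9.34 in Bank1/Pax5 leukemia (median 8.99), against 9.61 to 10.64 in Pax5 leukemia (median 10.04), a difference of -1.28 (SE 0.27, adjusted p = 0.0136). Neither had overlapping groups.

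Snora73a (-1.41, SE 0.18) lay between these in size, and Snora31 (-1.22, SE 0.15, adjusted p = 0.000713) and Snora73b (-1.19, SE 0.21) followed Snora44 in the H/ACA class, again without overlap. Snora31, carried by the translation-linked gene Tpt1, ran from 7.26 to 8.43 in Bank1/Pax5 leukemia (median 7.77), against 8.90 to 9.21 in Pax5 leukemia (median 8.95). The only member called in the other direction was Snord8, which ran from 8.18 to 8.62 in Bank1/Pax5 leukemia (median 8.52), against 7.73 to 8.14 in Pax5 leukemia (median 7.90). Its difference was 0.53 (SE 0.09, adjusted p = 0.00549) with no overlap. Values above 0 that did not pass were those of Snord15a (0.32), Snord82 (0.05) and Snora30 (0.29).

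**Figure D4:**
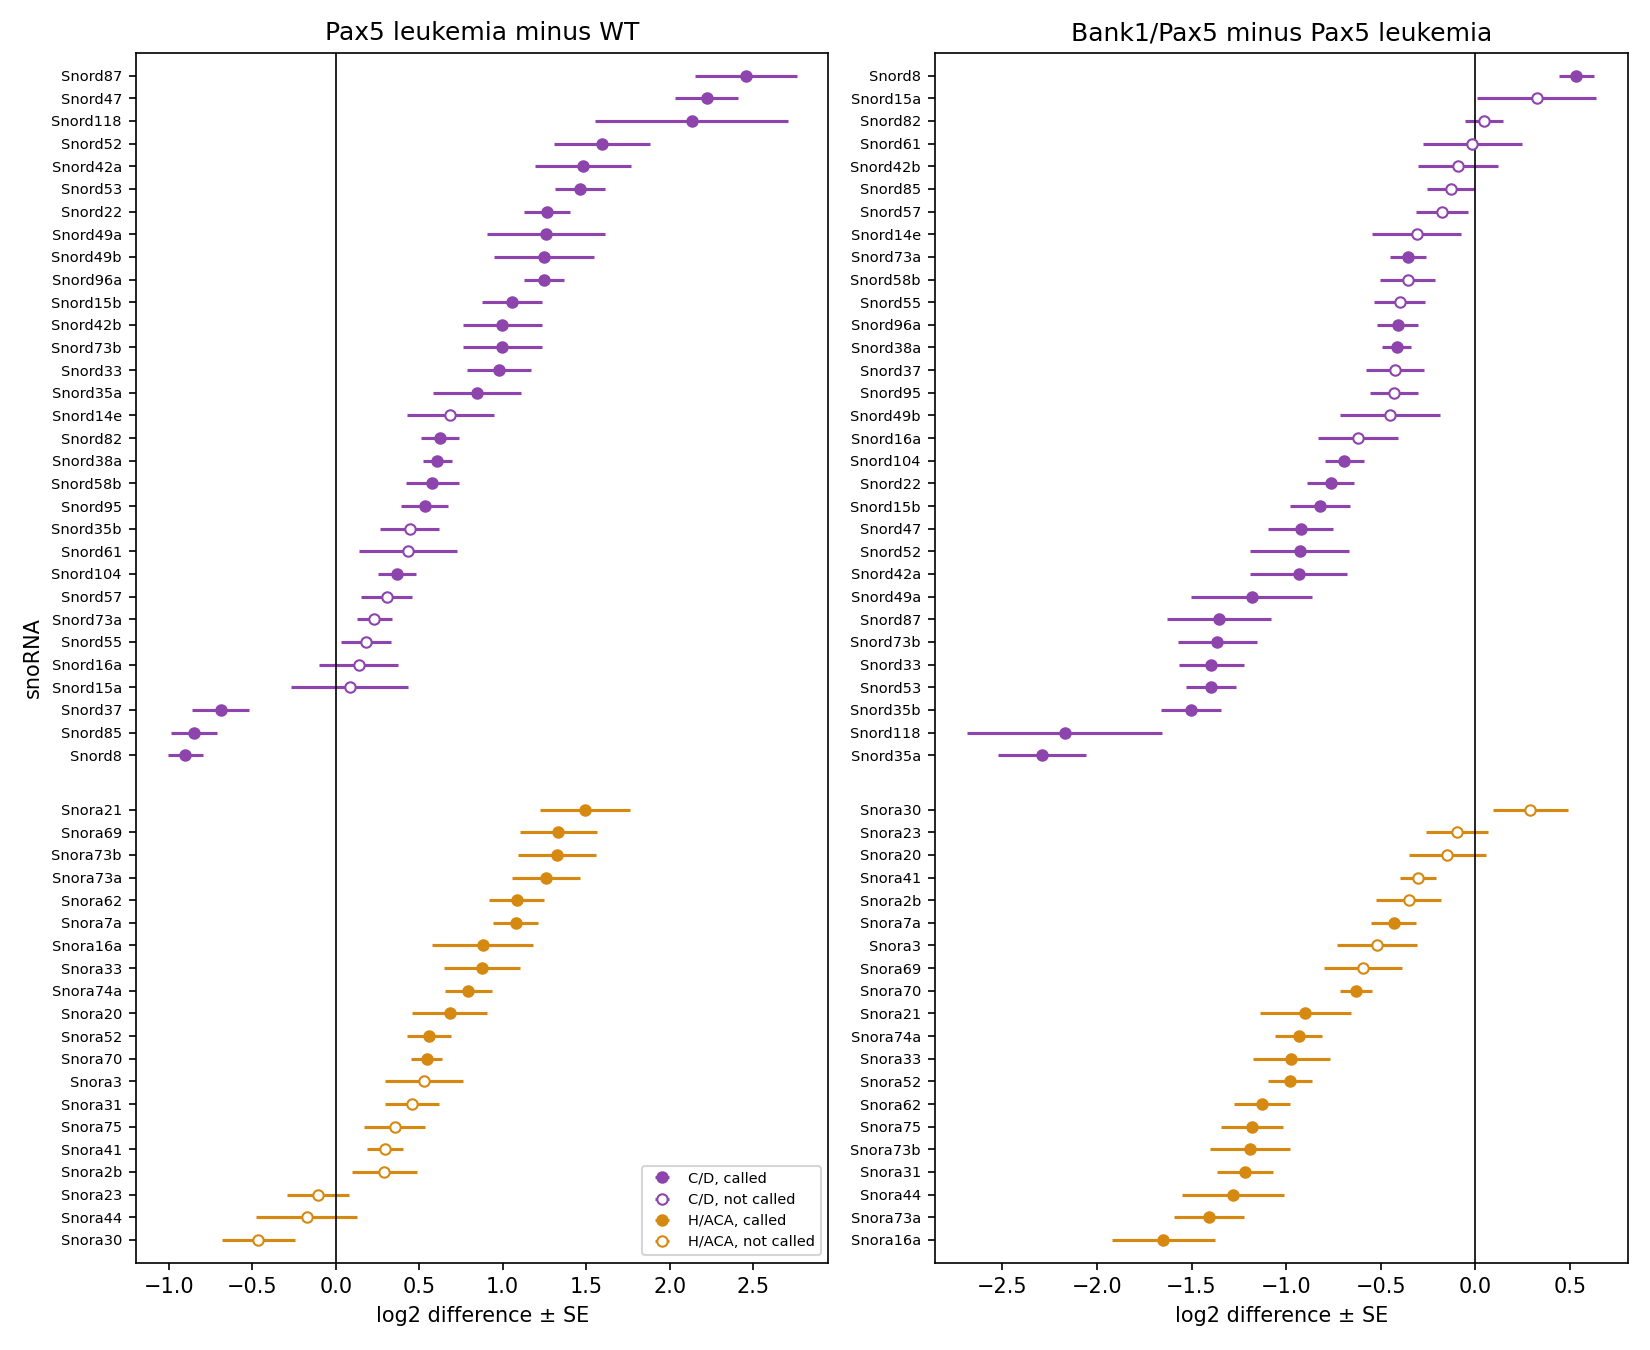
Log2 difference ± SE of each snoRNA in Pax5 leukemia minus WT (left) and Bank1/Pax5 minus Pax5 leukemia (right), C/D in purple above and H/ACA in orange below, each ordered by size; filled points passed the test. On the left 32 filled points lie above 0 and 3 below, and on the right 30 lie below 0 and Snord8 at 0.53 alone above.

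Bank1/Pax5 leukemia compared with WT precursors gave differences in both directions. Of the C/D snoRNAs 6 rose and 5 fell, and of the H/ACA snoRNAs 2 rose and 4 fell. Over all genes tested 6.8% were called higher and 12.8% lower, and 19.6% in either direction, against 33.3% of the 51 snoRNAs. The median difference was 0.13 for C/D, -0.09 for H/ACA and -0.03 for all genes. The class medians on an array gave a gap of -0.06, opposite in direction to these member medians, so no order of the classes is read. Of the 51 snoRNAs 15.7% were called higher and 17.6% lower. Groups did not overlap for 7 members higher in Bank1/Pax5 leukemia, 13.7% against 7.35% of all genes, and for 7 lower, 13.7% against 12.3%. The lower shares are near those of all genes, so the falls are not read as a result about snoRNAs as a group. The H/ACA median was 0.0080 without the arrays of low Mki67, a proliferation marker, a set of 2 Bank1/Pax5 arrays chosen after the data were seen. The calls over all genes, 1356 higher and 2543 lower, moved to 2079 and 1933 with cyclic loess, where 6 C/D were higher, 4 lower, 2 H/ACA higher and 4 lower. Leaving out the arrays with low Pax5 gave 5 higher and 4 lower C/D and 2 higher and 3 lower H/ACA snoRNAs. Also called higher were 7 of 8 monocyte and macrophage, 4 of 4 measured megakaryocyte and 5 of 8 stromal and endothelial markers, and 3 of 6 NK and T cell markers were lower. Of 7 measured B cell precursor markers 2 were called lower (median difference -1.74). None of 7 neutrophil and 3 measured erythroid markers was called. What share these cells had in the snoRNA values was not tested.

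Snord47 again rose clearly, with levels from 9.24 to 10.24 in Bank1/Pax5 leukemia (median 9.71), against 8.01, 8.87, 8.42 and 8.39 on the WT arrays, a difference of 1.30 (2.46-fold, SE 0.19, adjusted p = 0.000256) and no overlap. Snord96a, carried by the ribosome-bound scaffold gene Rack1, was at 0.84 (SE 0.12, adjusted p = 0.00023; dim in WT), and Snord82, carried by the nucleolin gene Ncl, at 0.67 (SE 0.11, adjusted p = 0.00083), both without overlap. Snord87 (1.10, SE 0.31, adjusted p = 0.0204) overlapped between groups and missed the threshold without WT array 1 or 4 (adjusted p = 0.0738 and 0.0676, and 0.0044 to 0.0738 across the alternatives). Snord42b (0.91, SE 0.24, adjusted p = 0.0149) also overlapped and missed it without WT array 4 (0.79, adjusted p = 0.0605). Snord49b was above WT on every array, at 0.80 (SE 0.30, adjusted p = 0.0753), and did not pass, although it did with array weights, in the fit without Pax5 leukemia and with dim probe sets removed (adjusted p from 0.0224 to 0.0475).

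The class medians in this comparison were close to 0 and give a weak class direction. That of C/D, 0.13, was 0.058 without Bank1/Pax5 array 2 and 0.22 to 0.26 with cyclic loess or without the arrays of low Pax5 or low Mki67. That of H/ACA, -0.09, was -0.0082 without Bank1/Pax5 array 6, -0.16 without array 2, -0.14 without WT array 4, -0.061 without WT array 1, -0.043 without the arrays of low Pax5 and -0.0016 with cyclic loess. By the sign of the C/D median, the C/D snoRNAs against their class were those that fell. Snord35a ran from 7.63 to 8.91 in Bank1/Pax5 leukemia (median 8.20), against 9.52, 10.00, 9.62 and 9.66 on the WT arrays, a difference of -1.45 (2.72-fold lower, SE 0.26, adjusted p = 0.00132). Snord37 (-1.12, SE 0.17, dim in both groups), Snord35b (-1.06, SE 0.18) and Snord85 (-0.98, SE 0.14) fell likewise, with no overlap for any of these. Snord8 was at -0.37 (SE 0.11), and its fall passed the test (adjusted p = 0.0245). Its call ended with cyclic loess, on leaving out the arrays of low Pax5 and without Bank1/Pax5 array 1 or WT array 4 (adjusted p from 0.0506 to 0.0971).

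In the H/ACA class, by the sign of its median, those against it were Snora7a (0.65, SE 0.14, adjusted p = 0.00375) and Snora69 (0.74, SE 0.23, adjusted p = 0.0354). Snora7a, carried by the ribosomal protein gene Rpl32, was above WT on every Bank1/Pax5 array. Snora69, carried by Rpl39, overlapped, and its call ended without Bank1/Pax5 array 2, 3 or 6, without WT array 2, 3 or 4 and in the fit without Pax5 leukemia (adjusted p from 0.0525 to 0.118).

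The H/ACA members that fell were led by Snora44, with levels from 7.67 to 9.34 in Bank1/Pax5 leukemia (median 8.99), against 10.15, 10.22, 10.65 and 9.98 on the WT arrays, a difference of -1.45 (2.74-fold lower, SE 0.30, adjusted p = 0.00345) without overlap. Snora75 (-0.83, SE 0.18, adjusted p = 0.00549) and Snora31 (-0.76, SE 0.16, adjusted p = 0.00455) also fell. Snora52 was at -0.42 (SE 0.13, adjusted p = 0.0355), a call that ended with median centring, in the fit without Pax5 leukemia, without the arrays of low Pax5 or low Mki67, and without Bank1/Pax5 array 1, 5 or 6 or WT array 1, 2 or 3 (adjusted p from 0.0552 to 0.142). Snora16a, the most variable H/ACA member with Snora44 and Snora73a, differed by -0.77 (SE 0.30, adjusted p = 0.0907) here and by 0.88 (SE 0.30, adjusted p = 0.0492) in Pax5 leukemia against WT precursors. That last call ended with median centring, without any single WT array and without Pax5 leukemia array 1, 2, 4, 5 or 6 (adjusted p from 0.0513 to 0.117).

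Sorting the members by the kind of host gene was a grouping made after the values were seen. A host was assigned by span to 50 of 51 in the RefSeq table, which carries no strand, and Snord118 was given none. In Pax5 leukemia against WT precursors the 12 snoRNAs of non-coding hosts had a median difference of 1.26, with 11 called higher, and the 21 of ribosomal protein hosts had 0.85, with 15 called higher. The 5 in other translation genes had 0.46, with 2 called higher and 1 lower, and the 12 in other protein-coding genes had 0.33, with 3 called higher and 2 lower. Over all genes 9.53% were called higher and 13.8% lower. In Bank1/Pax5 against Pax5 leukemia the order was the same with the sign turned: the medians were -1.06, -0.63, -0.43 and -0.14, with 11, 14, 2 and 2 called lower and 1 of the last kind called higher. Over all genes 5.0% were called lower and 1.71% higher. Both comparisons hold the same 6 Pax5 leukemia arrays, so the turned order is not a separate observation. Against WT precursors the medians in Bank1/Pax5 leukemia lay between -0.05 and 0.11.

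Hosts were measured by their own probe sets for 28 of the members, 24 host genes in all. In Pax5 leukemia against WT precursors 11 of the 24 hosts rose and 1 fell, with a median of 0.26. Over all genes 9.53% were called higher and 13.8% lower there. In Bank1/Pax5 against Pax5 leukemia 7 fell and none rose (median -0.15), and in Bank1/Pax5 leukemia against WT precursors 11 rose and 4 fell (median 0.22). Over all genes 5.0% were lower and 1.71% higher between the leukemias. In Bank1/Pax5 leukemia against WT precursors 6.8% of all genes were higher and 12.8% lower. The 4 hosts that fell there are 16.7% of the 24, near that share. The snoRNA had the larger difference, in absolute size, in 19, 22 and 14 of 28 pairs in these comparisons. The snoRNA and its host had the same sign in 25, 16 and 14 of the 28 pairs. Across pairs, which share arrays and in part hosts, the snoRNA and host differences correlated at r of 0.45, -0.25 and 0.09.

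Gas5 moved with Snord47, at 1.09 (SE 0.13) in Pax5 leukemia and 0.59 (SE 0.13) in Bank1/Pax5 leukemia, each against WT precursors, and all of these passed. The difference of Gas5 between Bank1/Pax5 and Pax5 leukemia was -0.50 (SE 0.12, adjusted p = 0.0223), which missed the threshold without Bank1/Pax5 array 5 (adjusted p = 0.0523), without Pax5 leukemia array 4 (0.0503), in the fit without WT (0.0505) and without the arrays of low Mki67 (0.0756). Other hosts differed from their snoRNA in the size or the direction of the difference. Rpl23, the host of Snora21, rose by only 0.18 (SE 0.06, adjusted p = 0.0334) in Pax5 leukemia against WT precursors, where Snora21 rose by 1.49. Tpt1, the host of Snora31, was at -0.08 (SE 0.04, adjusted p = 0.223) in Bank1/Pax5 against Pax5 leukemia, where Snora31 was at -1.22. Rps3a1 rose by 1.29 (SE 0.19) in Bank1/Pax5 leukemia against WT precursors, while its snoRNA Snord73b was at -0.37 (adjusted p = 0.301).

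**Figure D5:**
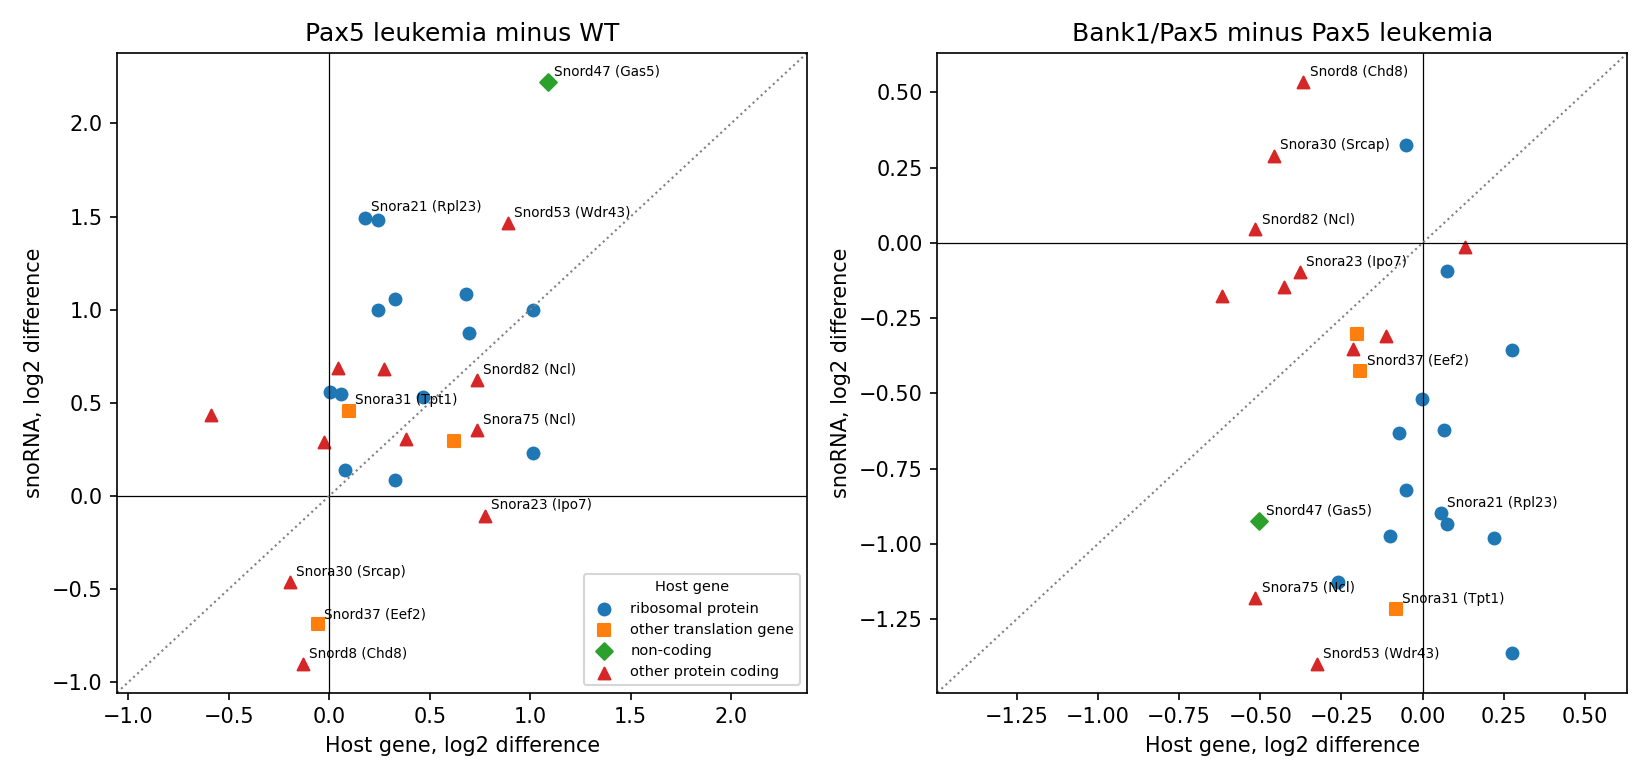
Log2 difference of the snoRNA (vertical axis) against that of its measured host gene (horizontal axis) for 28 pairs, in Pax5 leukemia minus WT (left) and Bank1/Pax5 minus Pax5 leukemia (right); symbols mark the kind of host, and the dotted line marks equal differences. Pearson's r across pairs is 0.45 on the left and -0.25 on the right, where most snoRNAs of ribosomal protein hosts lie below 0 with their hosts near 0.

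Chd8 and Eef2 host snoRNAs that went against their class. Chd8, the host of Snord8, was at -0.13 (SE 0.07, adjusted p = 0.196) in Pax5 leukemia against WT precursors, where Snord8 fell by 0.90. In Bank1/Pax5 against Pax5 leukemia Chd8 fell by 0.37 (SE 0.06, adjusted p = 0.0051) while Snord8 rose by 0.53. In Bank1/Pax5 leukemia against WT precursors both fell, Chd8 by 0.50 (SE 0.07, adjusted p = 0.0002) and Snord8 by 0.37. Eef2, the host of Snord37, was at -0.06 (SE 0.04, adjusted p = 0.288) in Pax5 leukemia against WT precursors, and in Bank1/Pax5 leukemia it fell by 0.25 (SE 0.04, adjusted p = 0.0003). Snord37 fell in both of these, by 0.69 and 1.12.

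The snoRNAs of 1 host did not always move together. Ncl holds Snord82 and Snora75. In Bank1/Pax5 leukemia against WT precursors Snord82 rose by 0.67 and Snora75 fell by 0.83 on the log2 scale, both called, with Ncl at 0.22 (SE 0.11, adjusted p = 0.172). In Bank1/Pax5 against Pax5 leukemia Snora75 was at -1.18 (SE 0.16) with no overlap, Snord82 at 0.05, and Ncl fell by 0.51 (SE 0.10, adjusted p = 0.0073). Of the pair in Rpl23a, Snord42a was at -0.93 (SE 0.26, adjusted p = 0.042) in Bank1/Pax5 against Pax5 leukemia and Snord42b at -0.09 (adjusted p = 0.828).

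The C and T run at the start was read in the hosts with a RefSeq promoter window, 31 of 40. A run of 5 or more C or T reaching within 5 bases of the start was present in 18 of these 31 hosts and in 31.4% of all 32851 windows, read on the strand of transcription. The 23 snoRNAs of those 18 hosts had a median difference of 0.85 in Pax5 leukemia against WT precursors (16 higher, none lower), and the 16 snoRNAs of hosts with a shorter run had 0.50 (8 higher, 2 lower). Over all genes 9.53% were called higher and 13.8% lower. In Bank1/Pax5 against Pax5 leukemia these medians were -0.69 and -0.73. By annotated start, the ribosomal protein hosts Rps3, Rps12, Rps3a1, Rpl10, Rpl23 and Rpsa, with runs of 1 to 3, were in the shorter group. An annotated start can lie off the first transcribed base, which was not tested, so no difference between the groups is read. Of the hosts whose members had values below 0 in Pax5 leukemia against WT precursors, Srcap (Snora30), Snhg12 (Snora44) and Ipo7 (Snora23) had runs of 7, 9 and 15, and Chd8 (Snord8) and Eef2 (Snord37) had runs of 4 and 2. The Srcap run lay wholly before the annotated start. The letters CACGTG, which read the same on both strands, occurred in 6 of 31 hosts (Rpl23, Rpl13a, Eef2, Wdr43, Ipo7 and Gm36220) and in 7.15% of all windows.

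Among the proteins that carry snoRNAs, the C/D core protein gene Nop58 rose in Pax5 leukemia against WT precursors (1.08, SE 0.18, adjusted p = 0.0006), while Fbl (0.25), Nop56 (0.38) and Snu13 (0.25) did not pass. Nop56 passed with cyclic loess, with array weights, in the fit without Bank1/Pax5 leukemia, without the arrays of low Pax5 or low Mki67 and without Pax5 leukemia array 3 alone (0.35 to 0.45, adjusted p from 0.0028 to 0.0462). Fbl passed at 0.50 with the mean of its probe sets (adjusted p = 0.0057) and at 0.25 in the fit without Bank1/Pax5 leukemia (0.0499). Of the H/ACA core protein genes Nhp2 (0.79, SE 0.23), Dkc1, which encodes dyskerin (0.66, SE 0.21), and Nop10 (0.61, SE 0.21) rose and Gar1 (0.07) did not pass. These 3 calls were narrow: each ended without WT array 1, 3 or 4, and Dkc1 and Nop10 also without several single Pax5 leukemia arrays (adjusted p from 0.0503 to 0.129), and Nop10 with median centring (0.055). Of 12 assembly factors 3 rose, namely Naf1 (0.84, SE 0.20) and Shq1 (0.45, SE 0.13), which act in H/ACA assembly, and Tgs1 (0.45, SE 0.12), which modifies the cap of small RNAs. They are 25% of that list, against 9.53% of all genes called higher.

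In Bank1/Pax5 against Pax5 leukemia the C/D core genes Nop56 (-0.62, SE 0.12, adjusted p = 0.0104) and Nop58 (-0.58, SE 0.16, adjusted p = 0.0406) fell, none of the 4 H/ACA core genes passed, and the assembly factors Tgs1 (-0.64, SE 0.11) and Coil (-0.52, SE 0.10) fell. Tgs1 and Coil are 16.7% of the 12 assembly factors, against 5.0% of all genes called lower. The Nop58 call ended when WT was left out of the fit (adjusted p = 0.1), with cyclic loess, with median centring, without the arrays of low Pax5 or low Mki67, and without Bank1/Pax5 array 4, 5 or 6 or Pax5 leukemia array 2, 4, 5 or 6 (0.0278 to 0.117 across the alternatives). In Bank1/Pax5 leukemia against WT precursors Nhp2 (0.89, SE 0.23, adjusted p = 0.0125) and the assembly factor Znhit6 (0.57, SE 0.19) rose, Coil fell by 0.49 on the log2 scale (SE 0.11), and none of the 4 C/D core genes passed. Of the 12 assembly factors 8.3% were thus higher and 8.3% lower. Over all genes the shares were 6.8% and 12.8%, so nothing is read about that list. Nop58 passed there with dim probe sets removed, cyclic loess or array weights and without the arrays of low Mki67 or Bank1/Pax5 array 4 (0.50 to 0.68, adjusted p from 0.0029 to 0.0423). Fbl passed with the mean of probe sets, cyclic loess or array weights and without the arrays of low Mki67 (0.35 to 0.45, adjusted p from 0.0185 to 0.0365).

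Other short RNAs gave a mixed picture. Of 3 guide RNAs of the Cajal body (Scarna genes), Scarna13 (1.50, SE 0.27) and Scarna17 (0.79, SE 0.13) rose in Pax5 leukemia against WT precursors, and Scarna8 was at -0.15. Of 5 Rnu genes none rose in that comparison and Rnu7 fell by 0.29. Their median on an array was 4.76 to 5.18 over all arrays, under the dim level of 7.01, so no direction is read from that list. In Bank1/Pax5 against Pax5 leukemia 1 of the 5 was called higher, and in Bank1/Pax5 leukemia against WT precursors 2 were called lower. In Bank1/Pax5 leukemia against WT precursors Rnu3a, a C/D-type RNA that acts in the cleavage of ribosomal precursor RNA, fell by 1.28 (SE 0.33, adjusted p = 0.0131). Of 296 microRNA genes, whose median on an array was 5.16 to 5.38 over all arrays, 7 were called higher and 49 lower in Pax5 leukemia against WT precursors (median -0.08), and 12 higher and 1 lower in Bank1/Pax5 against Pax5 leukemia (median 0.05). The 49 are 16.6% of the list, against 13.8% of all genes called lower, and the 12 are 4.05%, against 1.71% of all genes called higher. Since the list's medians lie under the dim level of 7.01, no direction is read from it.

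Of the 51 members 7 were dim in all groups and 14 in at least 1, and a dim level bounds the size of a difference poorly. A further 41 probe sets named a snoRNA together with other genes and were left out. The Snord32a and Rpl13a probe set averaged 10.49 ± 0.15 over Bank1/Pax5, 11.16 ± 0.14 over Pax5 leukemia and 10.00 ± 0.12 over WT arrays (SD, n = 6, 6 and 4), so it lay highest in Pax5 leukemia but not lowest in Bank1/Pax5 leukemia as Snord35a of the same host did. The Snord14a and Rps13 probe set averaged 7.53 ± 0.46, 8.33 ± 0.23 and 9.21 ± 0.24 in the same order, highest in WT precursors. The 24 probe sets of the Snord116 family had group means of 4.94 to 5.11, 5.00 to 5.14 and 4.79 to 4.95, all dim. Probe sequences were not used here, so signal from the unspliced host or from related snoRNAs cannot be told apart from that of the snoRNA itself.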

How the data were processed

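Total RNA of bone marrow leukemias and WT B cell precursors was biotin-labelled and hybridised to 16 mouse arrays, per the labels. As deposited, values are log2 intensities of probe sets that the authors made with RMA through the oligo package, per the submitters' processing notes, without stated versions. They were used without further scaling. Of 35556 probe sets, 21789 named 1 gene, and the one of highest mean was kept per gene, leaving 19938 genes.

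One limma 3.58.1 fit in R 4.3.3, with 3 group means and empirical Bayes moderation, gave all differences, two-sided, with Benjamini-Hochberg adjustment over all genes of a comparison. SE is the moderated standard error. The procedure was also run on simulated data that gave each gene the same spread in all groups. That run does not bear on genes whose spread differed between groups. The number of arrays limits the precision. The members, gene lists and markers were chosen with earlier results of these data known. Named in the text were the 5 called snoRNAs of largest difference per class, direction and comparison, those called against their class median, the 3 brightest and 3 most variable per class, the core snoRNP protein genes and the hosts. Hosts were taken by position from the RefSeq table (GRCm38.p6). Where several genes spanned a snoRNA, a Snhg gene, Gas5 or Chd8 was taken if among them, and otherwise no host was assigned. Of 5 members with more than 1 probe set, Snora30 and Snord118 had identical values on both.

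Alternatives were removal of dim probe sets, the mean of probe sets per gene, cyclic loess, median centring, a variance trend, array weights, fits of only 2 groups, a block by replicate number, and leaving out arrays. Each replicate is labelled as a separate biological replicate.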

Additional observations from a re-analysis of the deposited data

Results flagged for a closer look

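In 120 groups of arrays, each 1 snoRNA or core protein gene in 1 group, 6 had a single array far from the rest of its group. That is the share of about 1 in 20 that chance gives, so nothing is read from the count. Snord87 on array 4 of Pax5 leukemia was at 7.69, against 8.47 to 8.80 on the other arrays of that group. Snora31 on the same array was at 9.21, against 8.90 to 8.99. Snord82 was at 11.28 on array 5 of Pax5 leukemia, against 11.54 to 11.69, and at 10.59 on WT array 3, against 11.01 to 11.09. Snord8 was at 9.02 on WT array 4, against 8.73 to 8.77. Nop56 was at 11.31 on array 3 of Pax5 leukemia, an array with low Pax5, against 11.63 to 11.78.

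For 2 snoRNAs the leukemia groups lay on opposite sides of WT precursors. Every Bank1/Pax5 array was below and every Pax5 leukemia array above every WT array. The share of all genes with both separations was not counted. Taken alone, 12.3% of all genes lay lower without overlap in Bank1/Pax5 leukemia against WT precursors, and 11.6% higher in Pax5 leukemia against them. Snord35a differed by -2.29 (adjusted p = 0.000292 by limma) and Snora31 by -1.22 (adjusted p = 0.000713 by limma) between Bank1/Pax5 and Pax5 leukemia. For Snord35a both differences from WT precursors passed, although that of Pax5 leukemia (0.85, adjusted p = 0.0304) ended without WT array 1, 3 or 4 or Pax5 leukemia array 2 (adjusted p from 0.0574 to 0.0833). For Snora31 the difference of Pax5 leukemia from WT precursors (0.46, adjusted p = 0.0573) did not pass.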

How the results depend on the processing

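No called difference of a named snoRNA, core protein gene or Gas5 changed sign under the alternatives run, and the sign turned only for values that did not pass (Snora73a, Snora73b and Snord118 in Bank1/Pax5 leukemia minus WT, and Dkc1, Fbl, Gar1 and Nhp2 between the leukemias). The counts of called snoRNAs stayed within 1.5 times the reported ones, except that the called C/D snoRNAs between Bank1/Pax5 and Pax5 leukemia were 10 in place of 18 without the 3 arrays with low Pax5. With dim probe sets removed, the class gap moved to -0.020 for Bank1/Pax5 minus Pax5 leukemia and turned to -0.013 for Pax5 leukemia minus WT, and the class medians of Pax5 leukemia minus WT were 0.99 for C/D and 0.74 for H/ACA. For Bank1/Pax5 leukemia minus WT the gap turned to 0.037 without the arrays with low Pax5, and the H/ACA median to 0.0080 without the arrays of low Mki67. Leaving out single arrays gave gaps of -0.14 to 0.048 for Bank1/Pax5 leukemia minus WT and 0.20 to 0.36 for Pax5 leukemia minus WT, with 0.048 reached without array 5 of Bank1/Pax5 leukemia, and H/ACA medians of 0.52 to 0.70 for Pax5 leukemia minus WT. All genes called for Bank1/Pax5 minus Pax5 leukemia were 1336, but 446 in the fit without WT, 659 without the arrays with low Pax5, 725 to 1742 without single arrays (725 without Bank1/Pax5 array 5) and 6 snoRNP and host genes in place of 10 with cyclic loess. With array weights 6486 genes were called for Bank1/Pax5 leukemia minus WT and 8104 for Pax5 leukemia minus WT, and single arrays left out gave 2678 to 4531 and 3072 to 5560 (3072 without WT array 4). The replicate numbers did not pair the arrays (same-number correlations from -0.38 to 0.32), and with them as a block 2542 genes were called for Bank1/Pax5 leukemia minus WT, with 12 C/D and 4 H/ACA snoRNAs, and 696 for Bank1/Pax5 minus Pax5 leukemia, with 15 C/D and 12 H/ACA snoRNAs. The block ended the calls of Dkc1, Nop10 and Snora16a in Pax5 leukemia minus WT, of Gas5, Nop58 and Snord118 in Bank1/Pax5 minus Pax5 leukemia and of Snora52, Snora69 and Snord8 in Bank1/Pax5 leukemia minus WT, and it gave calls to Snord49b in Bank1/Pax5 leukemia minus WT (0.98, adjusted p = 0.0241) and Snord57 in Pax5 leukemia minus WT (0.41, adjusted p = 0.0234). The cause of these changes was not tested.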

Other observations

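Other abundant short RNAs made by RNA polymerase III or outside introns, picked after their values were seen, did not all share the pattern of the snoRNAs. Rny3, a Y RNA, averaged 12.54 ± 0.36 over Bank1/Pax5, 12.91 ± 0.34 over Pax5 leukemia and 10.81 ± 0.16 over WT arrays (SD, n = 6, 6 and 4), so it was high in both leukemias, and its difference between them was -0.37 (adjusted p = 0.221 by limma). Rny1, another Y RNA but dim in all groups, rose by 1.42 in Pax5 leukemia against WT precursors (SE 0.24, adjusted p = 0.00076 by limma). It was at -0.97 in Bank1/Pax5 against Pax5 leukemia (SE 0.22, adjusted p = 0.0175 by limma), with groups apart in both. Rmrp, an RNA of ribosomal precursor cleavage, rose by 0.54 in Pax5 leukemia against WT precursors (SE 0.14, adjusted p = 0.0141 by limma) and was at -0.50 in Bank1/Pax5 against Pax5 leukemia (SE 0.13, adjusted p = 0.0335 by limma). Rn7sk differed by 0.06 and -0.06 in these comparisons and Rpph1 by 0.13 and -0.42, and none of these passed. Rn7sk lay at 13.82 to 14.01 over all arrays, near the highest value of any probe set, 14.32. The size of a difference is not well bounded there. Terc, the telomerase RNA with an H/ACA domain, averaged 11.17 ± 0.70, 12.08 ± 0.36 and 11.42 ± 0.25 in the same order, and its differences did not pass. Myc, a growth regulator gene, was at 11.27 ± 0.12, 11.64 ± 0.42 and 9.71 ± 0.11 in the same order, called higher than WT in both leukemias and not called between them (-0.37, adjusted p = 0.162 by limma).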
